A study of Mus musculus with 16 samples.

Results

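The genes described here are the 265 long intergenic noncoding RNAs (lincRNAs) that were expressed in mouse liver in a study of the response to the DNA-damaging agent diethylnitrosamine (DEN) at 2 ages. They were chosen from 47719 genes with counts, of which 3707 were typed as lincRNA by the authors' table. A lincRNA was kept if it reached 1 CPM (the raw count scaled to a library of 1000000 reads) in at least 3 of the 16 libraries, and H19, Meg3 and Trp53cor1, which also reached this level, were left out by name. No count was found in any library for 1787 lincRNA genes. Of the 265 lincRNAs, 150 were at 1 CPM or more in all 16 libraries and 115 in fewer. The 12 just inside the limit, at 1 CPM in exactly 3 libraries, had a median level of 0.707 CPM over all libraries, and the 25 lincRNAs just outside it, at 1 CPM in exactly 2 libraries, had 0.668 CPM.

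All animals were wild-type C57BL/6 males, and every library was made from equal amounts of liver RNA pooled from 3 mice. At each of 2 ages there were 2 libraries of mice given no DEN, taken at time 0, 3 libraries from mice 2 days after 1 intraperitoneal injection of DEN and 3 from mice 6 days after it. The labels call the younger mice 3 to 4 weeks or 1 month old and the older ones 6 months old, and they give the dose as 25 mg per kg of body weight, whereas the paper's methods write mg per g. Untreated mice matched to days 2 and 6 were not analysed here, so effects of the injection or of the days themselves cannot be told apart from DEN.

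LincRNAs are transcripts without a recognised protein product that are made from between protein-coding genes, usually capped, spliced and polyadenylated like mRNA. A few are well studied: Malat1 lies in nuclear speckles, Neat1 builds the paraspeckle, and the small nucleolar RNA host genes carry snoRNAs in their introns. For most of the others, which bear the number of a predicted gene (Gm) or of a RIKEN cDNA clone (Rik), no function is established. Of the 265, 136 had Gm symbols, 90 had Rik symbols and 39 had other symbols. Here the name lincRNA follows the type in the authors' table, and whether any of them has a protein product was not examined.

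The sequences shown first belong to the lincRNAs on which the results turn. Promoter windows from RefSeq on GRCm38.p6, which run from 250 bases before to 50 bases after a start site, were matched for 118 of the 265 genes. The first 2 windows are those of the lincRNAs that rose after DEN, C130083M11Rik (chr5:52216384-52216683, minus strand) and 1700061I17Rik (chr3:117077716-117078015, minus strand). The next is that of 1700001L05Rik (chr15:83367248-83367547, minus strand) and the last 2 are windows of C330002G04Rik (chr19:23075856-23076155 and chr19:23058198-23058497, minus strand). Further windows of C330002G04Rik, which overlap these 2, are not shown. Both 1700001L05Rik and C330002G04Rik passed the test for a slope on the clock score, a score of circadian clock genes defined below. 1700001L05Rik rose with the score and C330002G04Rik fell. The 3 libraries of lowest score also differed in mitochondrial share, and score and share cannot be told apart. These 2 lincRNAs are shown because their windows hold a motif of clock factors. The windows of 1810058I24Rik, Gdap10, Mir17hg, Gm7967 and Gm42746, also among the 10 with the smallest p for the clock score, hold neither motif and are not shown. Capitals mark an E-box, CACGTG, to which CLOCK and BMAL1 bind, or a D-box, TTANGTAA, to which DBP and related factors bind. In the last window the D-box lies on the other strand, so that its reverse complement is printed.
C130083M11Rik: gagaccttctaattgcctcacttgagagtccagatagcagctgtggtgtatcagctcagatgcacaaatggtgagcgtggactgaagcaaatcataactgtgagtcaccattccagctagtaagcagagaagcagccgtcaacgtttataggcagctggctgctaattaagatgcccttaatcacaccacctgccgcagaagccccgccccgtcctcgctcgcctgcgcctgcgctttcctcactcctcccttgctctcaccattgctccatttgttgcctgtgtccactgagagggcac
1700061I17Rik: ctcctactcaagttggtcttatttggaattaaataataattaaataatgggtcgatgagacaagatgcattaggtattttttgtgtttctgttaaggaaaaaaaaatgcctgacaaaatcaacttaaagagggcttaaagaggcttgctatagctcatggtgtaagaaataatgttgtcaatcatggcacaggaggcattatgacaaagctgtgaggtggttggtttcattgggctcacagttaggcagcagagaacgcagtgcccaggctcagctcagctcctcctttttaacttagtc
1700001L05Rik: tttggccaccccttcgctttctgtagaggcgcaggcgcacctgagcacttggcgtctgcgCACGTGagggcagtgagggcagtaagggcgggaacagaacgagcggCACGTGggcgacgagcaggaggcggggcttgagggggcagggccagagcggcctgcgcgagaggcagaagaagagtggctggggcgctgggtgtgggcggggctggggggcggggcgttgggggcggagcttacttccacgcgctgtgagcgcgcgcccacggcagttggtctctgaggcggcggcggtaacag
C330002G04Rik, first start site: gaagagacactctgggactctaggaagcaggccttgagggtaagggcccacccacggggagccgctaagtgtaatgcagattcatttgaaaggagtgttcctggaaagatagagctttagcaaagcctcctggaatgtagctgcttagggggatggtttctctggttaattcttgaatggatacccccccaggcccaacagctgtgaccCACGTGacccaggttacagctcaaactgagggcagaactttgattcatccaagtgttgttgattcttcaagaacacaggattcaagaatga
C330002G04Rik, second start site: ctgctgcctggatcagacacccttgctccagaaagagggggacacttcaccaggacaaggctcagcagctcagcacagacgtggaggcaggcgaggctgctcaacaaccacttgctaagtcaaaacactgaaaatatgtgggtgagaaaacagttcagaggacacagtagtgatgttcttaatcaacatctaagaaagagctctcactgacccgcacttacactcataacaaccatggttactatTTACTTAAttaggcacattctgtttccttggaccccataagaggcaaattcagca

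Over both strands, an E-box lay in 17 of the 160 windows of the lincRNAs (10.6%) and in 7.15% of the 32851 windows of all genes. A D-box lay in 6 of the 160 (3.75%) and in 2.32% of all windows. The p53 half-site, a pattern with degenerate letters, was found in 7 of the 160 (4.38%) and in 8.36% of all windows. Some genes have several overlapping windows, so windows are not independent units. By gene, an E-box was held by 16 of the 118 lincRNAs and by 2187 of all 27025 genes with windows. A D-box was held by 4 and 735 of them, and a p53 half-site by 7 and 2582. The patterns were searched independently, so that a window may hold more than 1 of them. None of the 3 patterns was present in the windows of C130083M11Rik and 1700061I17Rik, which says only that these letters are not in these windows. Among the 23 lincRNAs with windows that fell as the clock score rose, 3 held an E-box and 2 a D-box, and of the 9 that rose with it, 1 held an E-box.

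Mir17hg is the host transcript of the miR-17-92 cluster, and its mature miRNAs are shown because they fall into 4 seed families of the main arms. Sequences are RefSeq's, with the seed, bases 2 to 8, in capitals. They lie on the plus strand of chromosome 14 of GRCm38.p6 between 115043684 and 115044496.
miR-17-5p: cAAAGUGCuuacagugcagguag
miR-20a-5p: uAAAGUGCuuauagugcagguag
miR-18a-5p: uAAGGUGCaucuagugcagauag
miR-19a-3p: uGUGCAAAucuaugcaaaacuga
miR-19b-3p: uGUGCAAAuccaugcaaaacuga
miR-92a-3p: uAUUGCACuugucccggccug
The seed AAAGUGC was shared by miR-17-5p and miR-20a-5p, and GUGCAAA by miR-19a-3p and miR-19b-3p. The libraries measured the host transcript and not the mature miRNAs.

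Total counts were 19039330 to 34459774 per library, so that 1 CPM was 19 to 34 reads. Replicates were correlated at 0.972 to 0.986 over all tested genes and at 0.898 to 0.967 over the lincRNAs, across genes of paired libraries and on the log2 scale. A set of 3 libraries stood apart from the other 13, namely replicate 2 of the 1-month-old controls, replicate 3 of the 1-month-old mice at day 2 and replicate 2 of the 1-month-old mice at day 6. Their clock score, which subtracts the mean log2 CPM of 5 genes in phase with Arntl from that of 9 in phase with Dbp, was -2.87 to -1.47, against -0.461 to 4.38 in the others. They also had 2.18% to 3.52% of counts on mitochondrial genes, against 3.82% to 5.28% in the other 13. Calls lost without them are given with their values without them, singly, as a range or as a count.

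The 265 lincRNAs took only 0.259% to 0.464% of the counts of a library, and 194 to 236 of them reached 1 CPM in any 1 library. Their mean raw CPM ranged from 0.583 to 972 with a median of 2.49, and 41 had a mean of 10 CPM or more. The 10 most counted took 54.4% to 66.9% of all lincRNA counts. Per kilobase of exon, the median of the 261 with a known length was 1.24 CPM, against 3.07 for the protein-coding genes tested. Their spread between replicates was wider: among genes with a mean between 1 and 10 CPM, the median SD of log2 CPM within a group was 0.360 for 183 lincRNAs and 0.311 for 3995 protein-coding genes, a description that was not tested.

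Gm26809 led both by count and per length. It was measured at 650.3 to 1251 normalised CPM over the 16 libraries, at 326 CPM per kilobase, and alone took 21.7% to 31.7% of the lincRNA counts. Its 2981 exonic bases lie on chromosome 6 (chr6:18844220-18847360, plus strand), and 855 of them are also exon of Gm20186 on the other strand, itself among the 10 most counted. After Gm26809, the highest levels per kilobase were those of AW112010 (137), Gm42428 (115) and Gm20186 (98.7). Malat1, at a mean of 242 normalised CPM, reached 34.7 CPM per kilobase, and Neat1, at 207 CPM, reached 9.95 over its 20771 bases.
Among the other genes in the top 10 by count, 1700020I14Rik ranged only from 78.7 to 119 CPM over the libraries, whereas Neat1 ranged from 27.7 to 700.0 CPM. Gm43549, at 29.8 to 367 CPM, was the fourth by count. Gm26905 ranged from 57.1 to 153 CPM. Gm17275, which shares 638 bases with the histone gene H3f3a, ranged from 64.6 to 126 CPM, and Gm26669, of whose 1808 exonic bases 1672 are also exon of Zfp36l1, ranged from 38.2 to 112 CPM.

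The name intergenic did not hold for many of them. In GENCODE M21, a later annotation of GRCm38, 261 of the 265 were found, of which 213 were still typed lincRNA. Of the rest, 20 were typed antisense, 14 bidirectional promoter, 10 processed transcript, 2 transcribed unprocessed pseudogene, 1 sense intronic and 1 protein-coding. Exons of 135 overlapped exons of another gene, in 125 of them on the opposite strand and in 18 on the same strand. The spans of 100 overlapped a protein-coding gene that was tested, and 26 started within 1000 bases of one, head to head. The sources used here do not say whether reads were counted by strand, so the reads of such pairs may be shared and the values of these lincRNAs are uncertain.

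Whether lincRNAs respond to DEN was asked by comparing each day with the controls of its age. Only C130083M11Rik passed the test in a single comparison, at both days in 6-month-old mice, and 1700061I17Rik passed when DEN libraries of both days and ages were averaged. Both rose, but 1700061I17Rik was kept by the level rule through DEN libraries only. Among 1-month-old mice, 0 of the 265 lincRNAs passed at day 2, when 0.0191% of all 15684 genes did, and 0 passed at day 6, when 0.0% did. At 6 months 1 of 265 (0.377%) passed at day 2, when 0.319% of all genes did, and 1 at day 6, when 0.249% did. In the average over days and ages, 2 passed (0.755%), against 0.465% of all genes. The level rule bears on this average, since 16 of the 265 reached 1 CPM in DEN libraries only and 0 in control libraries only. Of these 16, 1 passed, and of the 249 kept through both, 1 passed. P-values came from the quasi-likelihood test of edgeR and were adjusted by Benjamini-Hochberg over all 15684 genes, with calls at an adjusted p under 0.1.
Beside the counts of 0, an unadjusted p under 0.05 was found for 31 lincRNAs at day 2 (11.7%, all genes 7.16%) and 11 at day 6 (4.15%, all genes 2.72%) at 1 month, and DESeq2 called 3 and 0. No lincRNA passed between day 6 and day 2 at 1 month (all genes 0.00638%, 13 lincRNAs at an unadjusted p under 0.05, 4.91% against 5.06% of all genes, DESeq2 1) or at 6 months (all genes 0.0128%, 1 lincRNA at an unadjusted p under 0.05, 0.377% against 1.72% of all genes, DESeq2 0).

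**Figure D1:**
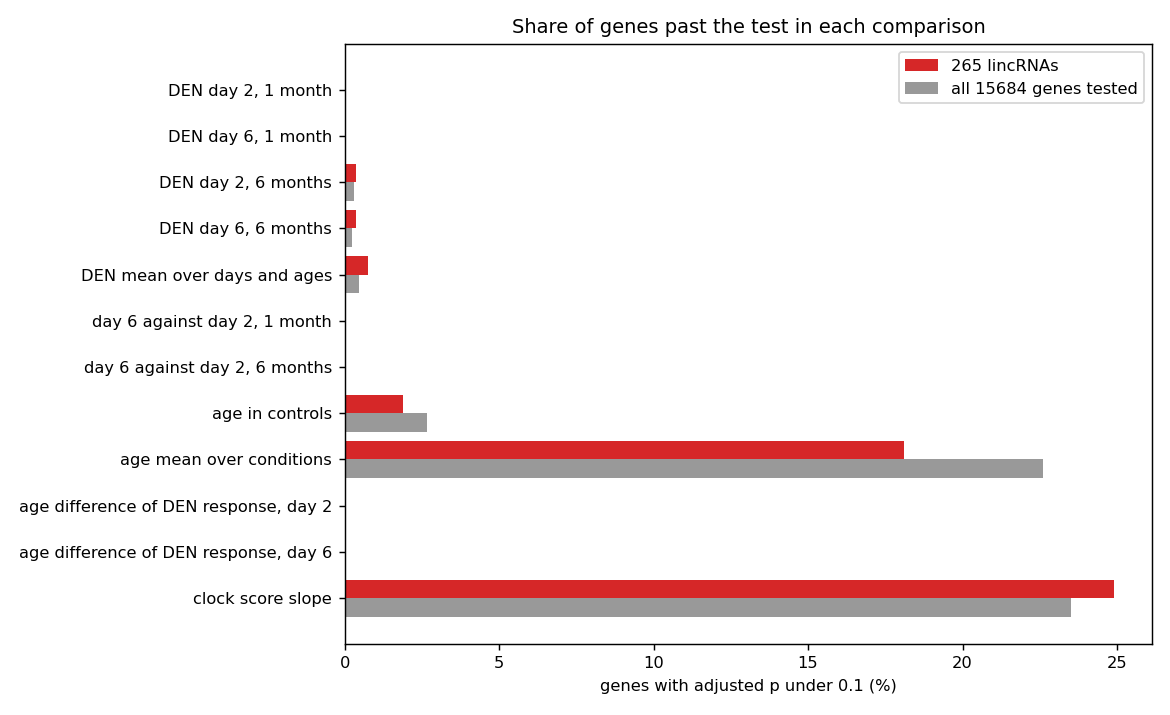
Percent of genes that passed edgeR's quasi-likelihood test at an adjusted p under 0.1 (x axis) in each comparison (y axis). Red bars are the 265 lincRNAs and grey bars all 15684 genes tested; only the mean age comparison and the clock score slope pass 10% in either set, at 18.1% and 24.9% of lincRNAs against 22.6% and 23.5% of all genes.

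C130083M11Rik (chr5:52199984-52216434, minus strand, GRCm38) has no exon shared with another annotated gene. In 1-month-old mice it was measured at 0.921 and 0.986 CPM in controls, at 2.21, 1.75 and 1.66 CPM at day 2 and at 2.3, 1.09 and 1.81 CPM at day 6. Libraries of 6-month-old mice were at 1.4 and 1.25 CPM in controls, at 5.57, 5.55 and 5.31 CPM at day 2 and at 3.61, 3.08 and 3.99 CPM at day 6. Every DEN library was above the controls of its age, and the 6-month day 2 libraries lay above all others.
On the log2 scale the difference in 6-month-old mice was 2.05 at day 2 (standard error 0.28, adjusted p = 0.00444, edgeR) and 1.43 at day 6 (standard error 0.27, adjusted p = 0.0688). It was 0.97 (adjusted p = 0.55) and 0.85 (adjusted p = 1) at 1 month, neither of which passed. The larger difference at 6 months was itself not past the test, with an age difference in the day 2 response of 1.08 (adjusted p = 0.943), nor was the -0.62 between day 6 and day 2 at 6 months (adjusted p = 1). Averaged over days and ages the value was 1.32 (standard error 0.18, adjusted p = 0.00331), and this call was kept in all 22 alternatives run.
The day 2 call at 6 months was lost only without replicate 2 of the 6-month controls (1.96, adjusted p = 0.161). The day 6 call was lost without any 1 of the 8 6-month-old libraries or without replicate 3 of the 1-month-old mice at day 6, at adjusted p = 0.103 to 0.913. With only the 2 groups compared, the day 6 call was lost too. Dhx15, an RNA helicase gene, ends 9470 bases away from C130083M11Rik and is its nearest tested protein-coding gene. Dhx15 had 0.03 (adjusted p = 1) at day 2.

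1700061I17Rik (chr3:117060522-117077765, minus strand) also overlaps no other exon. It reached 1 CPM in none of the 4 controls and entered the set through DEN libraries only, so that its higher level after DEN was part of how it was chosen and its values are a description. Its level was 0.345 and 0.272 CPM in 1-month controls, 1.98, 3.1 and 0.392 CPM at day 2 and 1.87, 0.338 and 1.85 CPM at day 6. In the older mice it was 0.327 and 0.171 CPM in controls, 3.1, 1.71 and 2.69 CPM at day 2 and 4.34, 2.17 and 3.69 CPM at day 6. Of the 12 DEN libraries 10 were far above the 4 controls, and the 2 that stayed near them were the 1-month libraries of low clock score. The mean difference on the log2 scale was 2.97 (standard error 0.56), and 3.13 without the 3 libraries of low clock score.
Counted over libraries, 746 reads fell on it after DEN and 30 in controls, a depth-scaled ratio of 8.88. The exact 95% interval of 6.16 to 13.3 covers counting error only, and not the spread between pools or how 1700061I17Rik was chosen. By day it had 3.38 and 3.83 at 6 months and 2.56 and 2.11 at 1 month, none of which passed. Its call in the average was lost without replicate 1 or 2 of the 1-month controls (adjusted p = 0.245 and 0.246) and without replicate 1 or 2 of the 6-month controls (adjusted p = 0.157 and 0.329). Its nearest tested protein-coding gene, 4930455H04Rik, had 0.28 (adjusted p = 1).

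**Figure D2:**
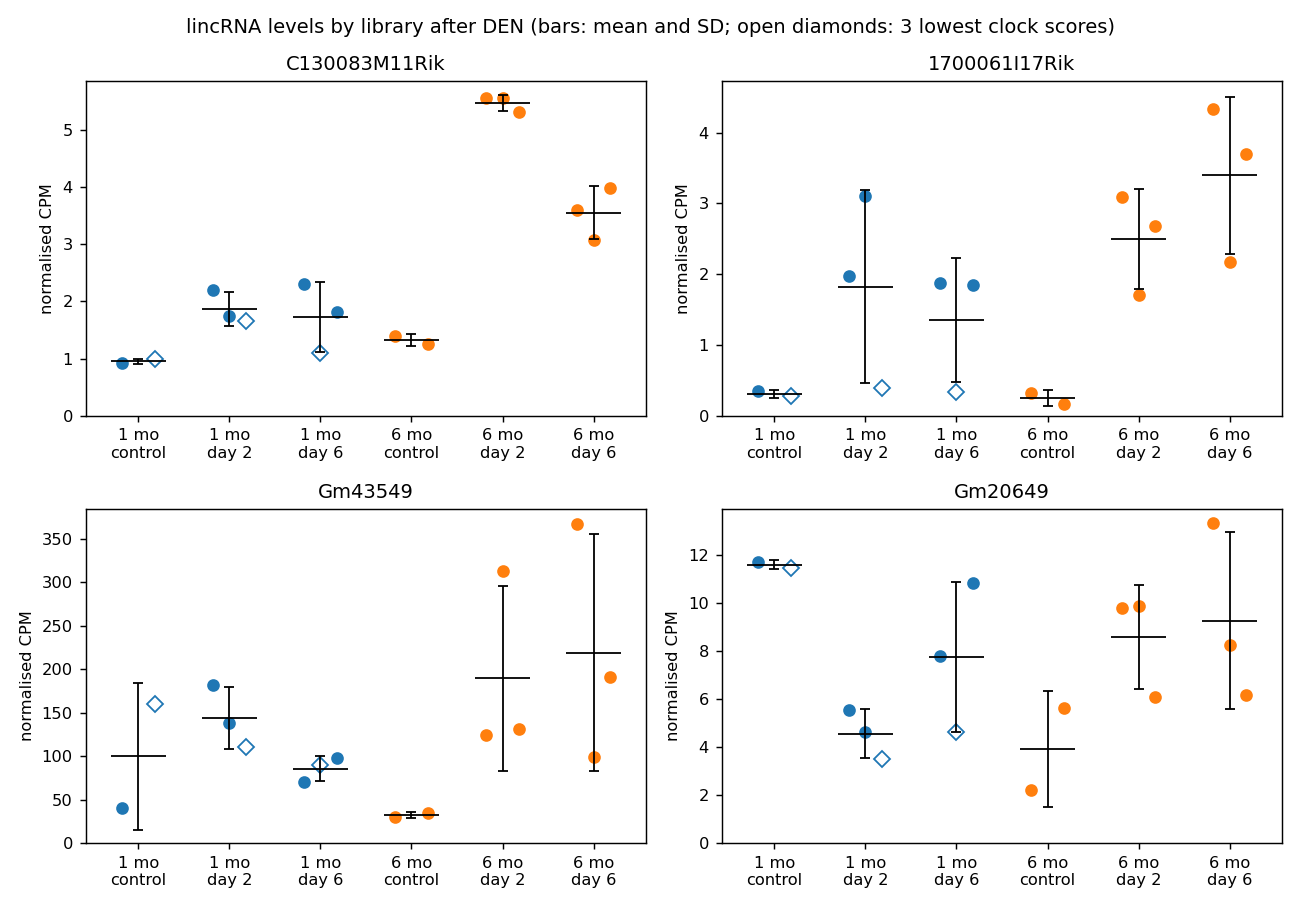
Normalised CPM (y axis) of 4 lincRNAs in each of the 16 libraries by group (x axis; blue 1 month, orange 6 months); horizontal lines are means, error bars are SD (n = 2 controls, n = 3 DEN), and open diamonds are the 3 libraries of lowest clock score. C130083M11Rik is at 5.31 to 5.57 CPM at day 2 in 6-month-old mice. Gm43549 overlaps between control and DEN libraries at 1 month and lies above the controls at 6 months. DEN libraries of Gm20649 lie below the controls at 1 month and above them at 6 months.

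Beside these, 10 of 12 genes that p53 is known to induce passed in the average over days and ages, and all 10 rose. Among them were the cell cycle inhibitor Cdkn1a (2.83, adjusted p = 0.0237) and the receptor gene Eda2r (2.77, adjusted p = 0.000566). The list of 4 lincRNAs reported as p53 targets does not hold Trp53cor1, which was left out of the set by name, so it is not a full account of such lincRNAs. Of the 4, only Neat1 and Pvt1 were among the 265, and neither passed in a DEN comparison. None of the 6 snoRNA host genes (Dancr, Snhg6, Snhg12, Snhg18, Snhg20 and Epb41l4aos), of the X inactivation genes Ftx and Jpx or of the nuclear body RNAs passed in them either.

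Gm43549 (chr3:55578105-55582730, minus strand) was more variable. In 1-month-old mice it was at 40.4 and 159.8 CPM in controls, 182, 138 and 111 CPM at day 2 and 70.1, 89.7 and 98.1 CPM at day 6. Libraries of 6-month-old mice were at 29.8 and 34.7 CPM in controls, 125, 312 and 131 CPM at day 2 and 367, 99.1 and 191 CPM at day 6. All DEN libraries at 6 months were above their controls, whereas at 1 month the libraries of control and DEN mice overlapped.
At 6 months its log2 fold change was 2.55 (adjusted p = 0.21, edgeR) at day 2 and 2.76 (adjusted p = 0.174) at day 6. It had the smallest p of the lincRNAs for the age difference in the response at day 6, at 2.98 (standard error 0.81), which did not pass (adjusted p = 1). This difference did pass in 1 of the 22 alternatives run.

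With single genes seldom past the test, the distribution over the set is given as a description. On day 2 in the younger mice 173 of the 265 lincRNAs were below 0 and 92 above, with a median log2 fold change of -0.15, against -0.01 over all genes tested. At day 6 they were 164 below and 101 above (median -0.11, all genes -0.01). At 6 months the medians were 0.02 at day 2 and 0.06 at day 6, with 150 and 154 of 265 above 0. Accordingly the age difference in the response was above 0 for 178 lincRNAs at day 2 (median 0.24, all genes 0.00) and for 175 at day 6 (median 0.16, all genes 0.00).
The shifts at 1 month and in the age difference were smaller without the 3 libraries of low clock score, all of 1-month-old mice and 1 of them a control. Without them, which leaves 1 control library at 1 month that is assumed to vary like the other groups, 133 lincRNAs were above and 132 below 0 at day 2 at 1 month (median 0.00, all genes 0.02), and 134 above and 131 below at day 6 (median 0.00, all genes 0.01). Then the age differences had medians of 0.05 and 0.06, with 150 and 148 above 0. With the clock score as a covariate in the 16 libraries the median at day 2 stayed at -0.15, with 97 above and 168 below. Some lincRNAs share reads with each other, and no test was made over the set.

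**Figure D3:**
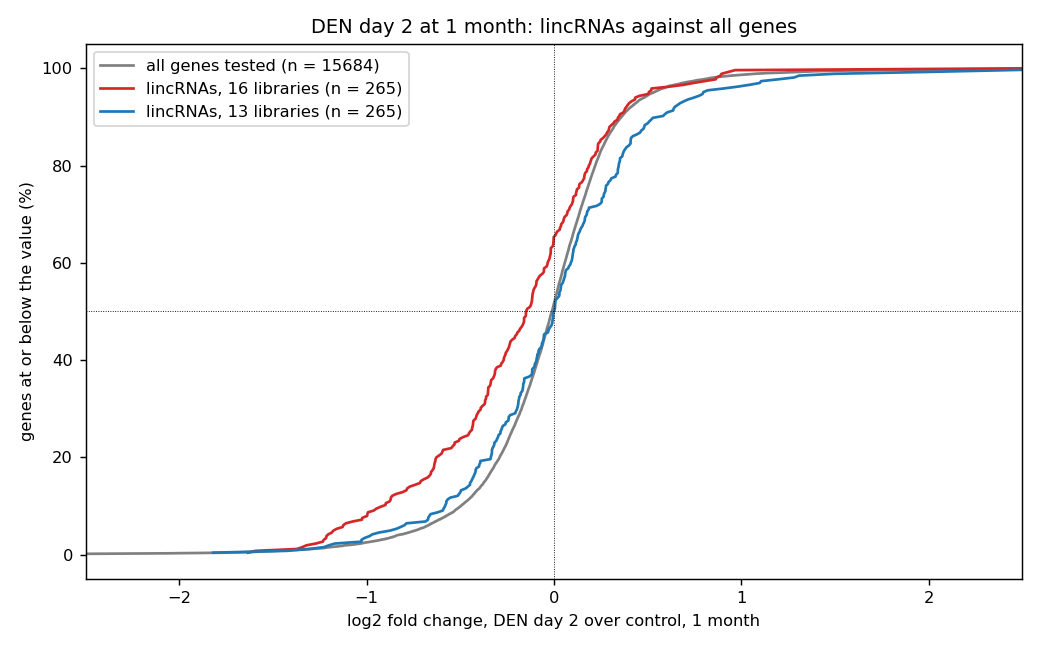
Cumulative percent of genes (y axis) at or below each log2 fold change of DEN day 2 over control in 1-month-old mice (x axis, shown from -2.5 to 2.5, so that more extreme values are not drawn). The red curve of the 265 lincRNAs in 16 libraries lies left of the grey curve of all 15684 genes, at a median of -0.15 against -0.01, and the blue curve of the lincRNAs without the 3 libraries of low clock score has a median of 0.00.

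Of the age differences in the DEN response, 0 lincRNAs passed at day 2 (all genes 0.00638%) and 0 at day 6 (all genes 0.0128%) in edgeR's quasi-likelihood test, with 21 (7.92%, all genes 4.46%) and 6 (2.26%, all genes 1.91%) at an unadjusted p under 0.05, and DESeq2 called 1 and 0. Gm20649 had the smallest p at day 2. It was at 11.7 and 11.5 CPM in 1-month controls, at 5.57, 4.63 and 3.53 CPM at day 2 and at 7.82, 4.62 and 10.9 CPM at day 6. The 6-month libraries were at 2.24 and 5.66 CPM in controls, 9.79, 9.9 and 6.11 CPM at day 2 and 13.4, 8.27 and 6.2 CPM at day 6. DEN libraries were thus all below the controls at 1 month and all above them at 6 months.
The age difference was 2.44 at day 2 (standard error 0.60, adjusted p = 0.943, edgeR), and it passed in 2 of the 22 alternatives run. Of the 2740 exonic bases of Gm20649, 2171 are shared, on the same strand, with other annotated genes including Onecut1, a hepatocyte transcription factor gene. How reads on shared bases were counted is not known, so its counts may not be separate from theirs.

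The libraries of DEN and control mice did not overlap for 55 lincRNAs at day 2 at 1 month (14 above, 41 below, 20.8% against 16.7% of all genes) and for 38 at day 6 (10 above, 28 below, 14.3% against 14.4%). At 6 months they did not overlap for 62 at day 2 (43 above, 19 below, 23.4% against 21.9%) and for 41 at day 6 (27 above, 14 below, 15.5% against 19.5%). By direction the shares of lincRNAs and of all genes were further apart. At day 2, 15.5% of lincRNAs and 8.77% of all genes lay below the controls at 1 month, and 16.2% and 10.8% above them at 6 months. At day 6, 10.6% and 7.26% lay below at 1 month, and 10.2% and 9.53% above at 6 months. In the other directions the lincRNAs had the smaller share. At day 2, 5.28% of lincRNAs and 7.96% of all genes lay above at 1 month, and 7.17% and 11.1% below at 6 months. At day 6, 3.77% and 7.09% lay above at 1 month, and 5.28% and 9.97% below at 6 months. Each 1-month group holds 1 of the 3 libraries of low clock score. In the average, over 12 libraries against 4, the count was 0, against 0.255% of all genes.

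More lincRNAs passed for age than for DEN, and the same was true of all genes, at 22.6% in the mean age comparison and 0.465% in the DEN average. The first sets 8 libraries against 8 and the second 12 against 4, so these counts do not compare the size of the effects. Averaged over controls and both days, 48 of 265 lincRNAs (18.1%) differed between 6 and 1 month, against 22.6% of all genes tested. Of these, 25 were higher at 6 months (9.43%, all genes 12.1%) and 23 lower (8.68%, all genes 10.5%). In the controls alone 5 passed (1.89%, all genes 2.67%), Gm12718, Pvt1 and AW112010 higher and Gm26880 and Gm42428 lower, with 1.61% of all genes higher and 1.06% lower. Between the control ages 30 lincRNAs (11.3%, all genes 12.6%) had an unadjusted p under 0.05. The 2 control libraries of each age did not overlap for 97 lincRNAs (35 above and 62 below at 6 months, 36.6% against 43.1% of all genes).
The level rule bears on part of this. Through 1-month libraries only 4 lincRNAs were kept and through 6-month libraries only 8, so that the direction of their difference was favoured by how they were chosen. Of these, 4 of the 4 and 6 of the 8 passed. Of the 253 kept through libraries of both ages, 38 passed, 19 in each direction, and 4 of them passed in the controls. Without the 3 libraries of low clock score 45 of the 265 passed, 30 higher and 15 lower, of which 30 were among the 48. When each library was left out in turn, 27 of the 48 calls were kept throughout and 21 were lost at least once.

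Gm12718 (chr4:103382500-103492040, plus strand), one of those kept through the 6-month libraries only, was at or near 0 at 1 month. Since its higher level at 6 months was part of how it was chosen, its values are a description. It was at 0 and 0.068 CPM in 1-month controls, 0.046, 0 and 0.0871 CPM at day 2 and 0.0959, 0.113 and 0.236 CPM at day 6. At 6 months it was at 2.29 and 1.54 CPM in controls, 0.72, 1.42 and 1.23 CPM at day 2 and 1.5, 1.56 and 1.81 CPM at day 6. The ages did not overlap in any condition.
In all, 16 reads at 1 month stood against 334 at 6 months, a depth-scaled ratio of 18.6 (exact 95% interval 11.3 to 32.8). In the controls 2 stood against 103, a ratio of 50.5 (13.6 to 423). The intervals cover counting error only, and not the spread between pools or how Gm12718 was chosen. Its nearest tested gene Oma1, a mitochondrial protease, lies 10632 bases away and had 0.06 in the controls and -0.04 in the average.

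Pvt1 (chr15:62037986-62378096, plus strand) lies 47612 bases from Myc. It was at 0.741 CPM at the lowest, 1.85 CPM at the highest in the 8 libraries of 1-month-old mice, and at 2.85 to 4.71 CPM in those of 6-month-old mice, with no overlap. In the controls its level was 0.997 and 0.918 CPM at 1 month and 2.85 and 2.87 CPM at 6 months. The difference on the log2 scale was 1.58 (standard error 0.34, adjusted p = 0.0364, edgeR) in controls and 1.57 (standard error 0.17, adjusted p = 4.02e-05) in the average.
Myc itself, the proto-oncogene, had -0.89 in the average (standard error 0.38, adjusted p = 0.13) and did not pass. With only the 2 groups compared, the call of Pvt1 in the controls was lost. Leaving out any 1 of the 4 control libraries ended the call of Pvt1 in the controls, at adjusted p = 0.123 to 0.264. Without the 3 libraries of low clock score the difference in controls was 1.51 (adjusted p = 0.0996).

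AW112010 (chr19:11047617-11050566, minus strand), which is described in immune cells, was at 83.0 and 57.4 CPM in 1-month controls and at 132 and 169 CPM in 6-month controls. After DEN it was at 85.3, 111 and 81.8 CPM at day 2 and 94.6, 74.3 and 121 CPM at day 6 at 1 month, and at 127, 86.8 and 152 CPM and 119.9, 114 and 149.9 CPM at 6 months. Ages separated in the controls and overlapped after DEN. On the log2 scale it was higher by 1.10 (standard error 0.29, adjusted p = 0.0816, edgeR) in controls and 0.63 (standard error 0.14, adjusted p = 0.00887) in the average. The call in controls was lost with only the 2 groups compared.
In controls the call was lost without any 1 of the 4 controls (adjusted p = 0.1 to 0.508) and without any of 4 DEN libraries that bear on it through the spread (1-month day 6 replicate 1, 6-month day 2 replicate 1 and 6-month day 6 replicates 1 and 2, adjusted p = 0.104 to 0.116). Without the 3 libraries of low clock score it was 0.85 in controls (adjusted p = 0.386) and 0.47 in the average (adjusted p = 0.0705). Markers of immune cells moved with age too: 2 of 4 lymphocyte markers, Cd3e and Cd79a, and 3 of 5 macrophage markers, Cd5l, Vsig4 and Marco, were higher in the average. The summed lymphocyte markers were at 1.63 to 3.76 CPM at 1 month and 3.63 to 5.69 CPM at 6 months. The summed macrophage markers overlapped widely, at 344 to 568 CPM at 1 month and 372 to 692 CPM at 6 months. Their part in the result was not tested. In bulk RNA of tissue, fewer cells of a type and less RNA per cell cannot be told apart.

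Gm26880 (chr4:146509094-146511764, minus strand) was lower at 6 months. It was at 60.5 and 105 CPM in 1-month controls, 40.4, 28.2 and 41.3 CPM at day 2 and 119.8, 82.1 and 60.6 CPM at day 6. At 6 months all 8 libraries were between 15.4 and 32.3 CPM, with 21.8 and 21.7 CPM in controls. Only the lowest 1-month library, at day 2, fell within the 6-month range.
On the log2 scale the difference was -1.93 (standard error 0.37, adjusted p = 0.0191, edgeR) in controls and -1.51 (standard error 0.19, adjusted p = 0.000111) in the average. It also had the smallest p of the lincRNAs at day 2 at 1 month (-1.18, standard error 0.32, adjusted p = 0.446) and between day 6 and day 2 at 1 month (1.26, standard error 0.29, adjusted p = 0.564), neither of which passed. Each of these 2 did pass in 2 of the 23 alternatives run. The call in controls was lost without replicate 2 of the 1-month controls (-1.48, adjusted p = 0.183), without either 6-month control (adjusted p = 0.153 and 0.132) and without the 3 libraries of low clock score (adjusted p = 0.207). Gm13247, a gene of the opposite strand that its span overlaps, was higher at 6 months in the average (2.44, adjusted p = 0.000611).

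Gm42428, a single stretch of 302 bases (chr5:44136620-44136921, plus strand), had a like pattern. Controls were at 48.6 and 104 CPM at 1 month and at 17.9 and 18.7 CPM at 6 months. After DEN its range was 10.8 to 87.3 CPM in the younger and 11.3 to 25.6 CPM in the older mice, with overlap. It fell by 2.06 on the log2 scale in controls (standard error 0.55, adjusted p = 0.0881, edgeR) and by 1.41 in the average (adjusted p = 0.00349). The call in controls was lost with only the 2 groups compared. Without replicate 2 of the 1-month controls the difference in controls was -1.41 (adjusted p = 0.538), and the call was lost without either of the 6-month controls too (adjusted p = 0.419 and 0.356) or any of 5 DEN libraries (1-month day 2 replicate 3, 6-month day 2 replicates 1, 2 and 3 and 6-month day 6 replicate 3, adjusted p = 0.1 to 0.109). Without the 3 libraries of low clock score it was -1.41 in controls (adjusted p = 0.504) and -1.17 in the average (adjusted p = 0.0339). Prom1, a membrane protein gene 34588 bases away, had -0.84 in the average (adjusted p = 0.0678).

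Among the lincRNAs called in the average, 6 did not overlap between the 8 libraries of each age (2.26%, against 3.68% of all genes): Gm12718, Pvt1, Gm26883, Dubr and Gm42434 were above and Snhg6 below. Of these, Gm12718 and Gm42434 were kept through 6-month libraries only. Snhg6, a snoRNA host gene (chr1:9941959-9944118, minus strand), was at 9.62 CPM at the lowest and 15.6 CPM at the highest at 1 month and at 4.85 to 9.29 CPM at 6 months. It fell by 0.93 (standard error 0.13, adjusted p = 0.00035, edgeR). Of the 5 other snoRNA host genes, Dancr was also lower, by 0.65 (adjusted p = 0.0828), a call lost on leaving out any 1 of 11 libraries (adjusted p up to 0.331 without replicate 2 of the 1-month controls) and without the 3 of low clock score (adjusted p = 0.525). The 4 others did not pass.
Gm26883 was at 4.74 to 9.77 CPM at 1 month and at 12.2 to 17.6 CPM at 6 months, with 0.84 (standard error 0.12, adjusted p = 0.000297). As many as 5076 of its 5115 exonic bases are exon of the transcription factor gene Tshz2 on the other strand, which had 0.79 (adjusted p = 0.0113). Dubr had medians of 1.81 CPM at 1 month and 3.25 CPM at 6 months (0.87, adjusted p = 0.00121).
AU020206, at 3.3 to 6.09 CPM at 1 month, was at 5.97 to 12.8 CPM at 6 months (1.12, adjusted p = 0.000781). AI504432 and Gm42434, both kept through 6-month libraries only, had 1.96 and 1.10, given as a description. For AI504432, the potassium channel gene Kcna3, 1434 bases away, had 3.08 (standard error 0.73, adjusted p = 0.0142).

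Malat1 was higher at 6 months, by 0.94 in the average (standard error 0.30, adjusted p = 0.0497, edgeR). Its level was 286 and 79.1 CPM in 1-month controls, 189, 99.8 and 90.9 CPM at day 2 and 236, 72.8 and 223 CPM at day 6. Libraries of 6-month-old mice were at 185 and 262 CPM in controls, 280.2, 309 and 434 CPM at day 2 and 315, 272 and 547 CPM at day 6. The 3 libraries of low clock score held the 3 lowest values. The call was lost without replicate 2 of the 1-month controls (adjusted p = 0.135), replicate 2 of the 6-month controls (0.13), replicate 3 of the 6-month mice at day 2 (0.101) or replicate 3 of those at day 6 (0.109). Without the 3 libraries of low clock score the difference was 0.53 (adjusted p = 0.137).
C130083M11Rik, which rose after DEN, was also higher at 6 months in the average, by 1.02 (standard error 0.15, adjusted p = 0.000491), with controls at 0.921 and 0.986 CPM at 1 month and at 1.4 and 1.25 CPM at 6 months.

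**Figure D4:**
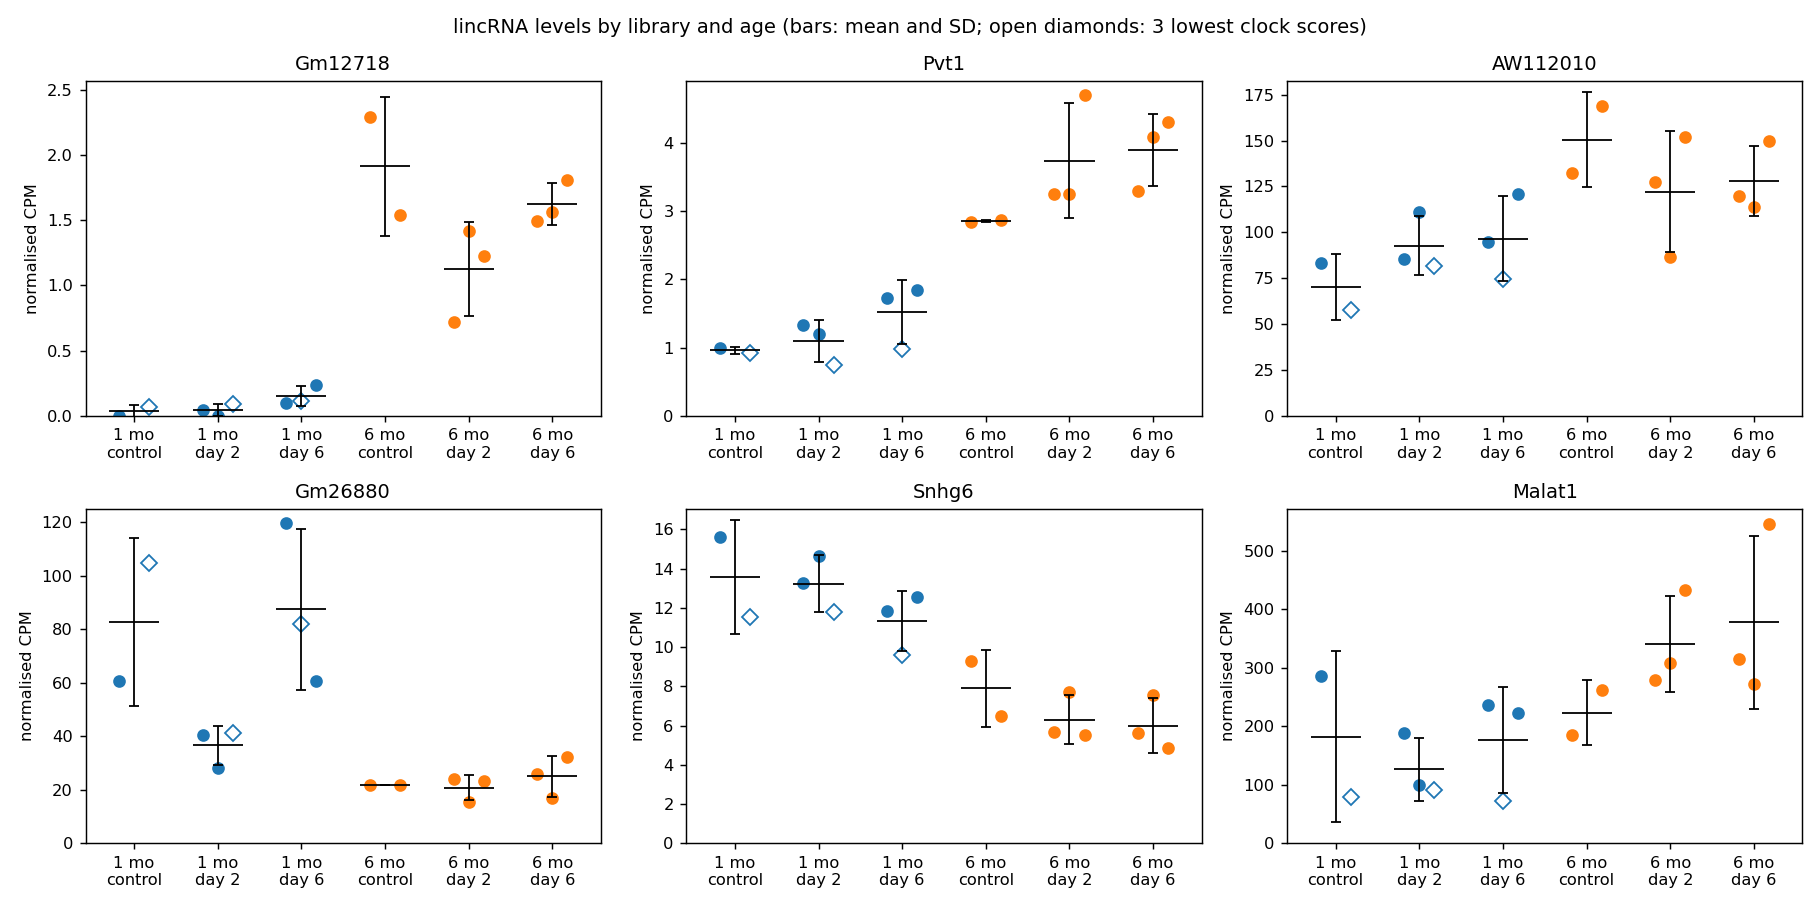
Normalised CPM (y axis) of 6 lincRNAs in each of the 16 libraries by group (x axis; blue 1 month, orange 6 months); horizontal lines are means, error bars are SD (n = 2 controls, n = 3 DEN), and open diamonds are the 3 libraries of lowest clock score. Gm12718 is at 0 to 0.236 CPM at 1 month and 0.72 to 2.29 CPM at 6 months, and Snhg6 and Pvt1 also separate the ages, while AW112010 and Malat1 overlap.

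A run of lincRNAs on chromosome 8, named after their values were seen, was lower at 6 months in the average. Their nearest tested protein-coding gene is Irs2, an adaptor of the insulin receptor, which did not pass (-0.09, adjusted p = 0.842). RP23-366O14.2 had -0.97 (adjusted p = 0.0661), RP23-366O14.4 -1.45 (adjusted p = 0.0099) and RP23-366O14.5 -0.55 (adjusted p = 0.0516). RP23-366O14.3 and 3930402G23Rik beside them had -1.28 and -1.46, but both were kept through 1-month libraries only, so that being lower at 6 months was part of how they were chosen. The call of RP23-366O14.4 was kept without any 1 library, and without the 3 libraries of low clock score it had -1.37 (adjusted p = 0.0334). Those of RP23-366O14.2 and RP23-366O14.5 were lost without replicate 2 of the 1-month controls (adjusted p = 0.275 and 0.124), each also without at least 1 of the 6-month controls, and without the 3 libraries of low clock score (adjusted p = 0.52 and 0.209). That of 3930402G23Rik was lost in the same way (adjusted p = 0.25 and 0.554). Lying side by side, the 5 are not independent measurements.

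Neighbouring genes were compared for sign. Of the 48 lincRNAs that differed by age, 22 overlap the exons of another gene, and 17 of these had the same sign as their nearest tested protein-coding gene. Of the 26 others 19 had the same sign. Where the neighbour also passed, it moved the same way in 7 of 7 and in 7 of 8 cases. Same signs among lincRNAs that were not called were not counted. By overlap of annotated exons, 22 of 135 lincRNAs with shared exons (16.3%) and 25 of 126 without (19.8%) passed. Reads shared outside annotated exons were not examined, and the part of shared reads in the calls was not tested.
Beside the lincRNAs, 5 of 7 female-biased or juvenile liver genes, among them Cyp2b9, were lower at 6 months in the average and 3 of 4 male-biased genes were higher. Of 6 hepatocyte markers 5 were lower. The summed hepatocyte markers were at 22490 to 33104 CPM at 1 month and at 16923 to 23863 CPM at 6 months, and their part in the age results was not tested.

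Because the libraries differed in clock score, the relation of each lincRNA to the clock score was tested within groups, as a slope in a model of the 6 groups and the score. Of the 265 lincRNAs 66 passed (24.9%, all genes 23.5%), of which 21 rose with the score (all genes 10.6%) and 45 fell (all genes 13%). A slope is the log2 change for 1 unit of score. The relation rested on the 3 libraries of low score, which also differed in mitochondrial share: without them 3 lincRNAs passed, 2 of which were among the 66, and 270 genes in all. When each library was left out in turn, 20 of the 66 calls were kept throughout. The sources used here do not give the hour of sacrifice, and the clock score and the mitochondrial share cannot be told apart in these libraries.

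Gdap10 (chr12:32821872-32826904, plus strand) had the steepest slope of those named that rose, at 0.41 (standard error 0.07, adjusted p = 0.00122, edgeR). It was at 18.1 and 2.65 CPM in 1-month controls, 11.1, 2.41 and 0.915 CPM at day 2 and 10.4, 1.84 and 3.93 CPM at day 6. The older mice had 2.89 and 4.52 CPM in controls, 6.67, 4.76 and 4.22 CPM at day 2 and 9.13, 3.18 and 3.96 CPM at day 6. In each 1-month group the library of low score was the lowest. Its span lies within that of Nampt on the same strand, the rate-limiting enzyme of NAD salvage and a known clock target, which had 0.26 (adjusted p = 0.000249).
1700001L05Rik, whose promoter window with E-boxes at -190 and -144 from the start site is shown above, had a slope of 0.25 (adjusted p = 0.00115). It was at 8.09 and 2.82 CPM in 1-month controls, 8.97, 4.74 and 2.57 CPM at day 2 and 6.62, 2.59 and 4.4 CPM at day 6. At 6 months it was at 2.66 and 5.15 CPM in controls, 7.17, 3.13 and 2.49 CPM at day 2 and 7.44, 5.95 and 4.39 CPM at day 6. Other libraries than the 3, such as a 6-month control, were as low.
4732463B04Rik had 0.20 (standard error 0.03, adjusted p = 0.000501), the smallest p of the set. It shares 615 bases with the acyl-CoA thioesterase genes Acot3 and Acot4, and Acot3 had 0.60 (adjusted p = 0.00132). 1810058I24Rik, a lincRNA at 39.8 to 114 CPM, had 0.15 (adjusted p = 0.00122), and was the 1 of the 10 with the smallest p that still passed without the 3 libraries (0.21, adjusted p = 0.0928). For the other 9 of the 10 the adjusted p was then 0.123 to 0.851.

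Among those that fell as the score rose was Neat1, the third by count. It was at 79.8 and 474 CPM in 1-month controls, 103, 27.7 and 226 CPM at day 2 and 70.1, 700.0 and 237 CPM at day 6. At 6 months it was at 125 and 93.0 CPM in controls, 155, 154 and 212 CPM at day 2 and 101, 228 and 320.1 CPM at day 6. In each 1-month group the highest value was that of the library of low score. The slope of Neat1, which is outside the 10 with the smallest p, was -0.35 (standard error 0.07, adjusted p = 0.00419, edgeR) and, without the 3 libraries, -0.24 (adjusted p = 0.539). Malat1, its neighbour on chromosome 19, had 0.14 (adjusted p = 0.163).
Mir17hg (chr14:115042879-115046727, plus strand), the host of the miRNAs printed above, had -0.23 (adjusted p = 0.00237). It was at 2.38 and 8.33 CPM in 1-month controls, 2.58, 1.9 and 5.84 CPM at day 2 and 2.11, 7.63 and 3.07 CPM at day 6. At 6 months all 8 libraries were between 2.07 and 3.93 CPM. The 3 libraries of low score were the 3 highest, and without them the slope was -0.04 (adjusted p = 0.851).

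Gm2061 had -0.28 (adjusted p = 0.000593) and shares 533 bases with the manganese transporter gene Slc30a10, which had -0.34 (adjusted p = 5.23e-06). Gm42746 had -0.38 (adjusted p = 0.00109), at a level of 0.0767 to 1.39 CPM. Gm7967 had -0.34 (adjusted p = 0.002), and Gm26527, which lies wholly within exons of Arsb, had -0.09 (adjusted p = 0.00225), the same as Arsb (-0.09, adjusted p = 0.00276).
C330002G04Rik, whose windows hold an E-box at -41 and a D-box at -5, had -0.32 (adjusted p = 0.00368) at a level of 0.0959 to 1.8 CPM. Its nearest tested gene Klf9 had -0.05 (adjusted p = 0.368). The snoRNA host gene Epb41l4aos rose with the score, at 0.12 (adjusted p = 0.0174), and did not pass without the 3 libraries (adjusted p = 0.299). Where exons are shared, 25 of 36 called lincRNAs had the sign of their nearest tested protein-coding gene, and 19 of 30 did where they are not.

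**Figure D5:**
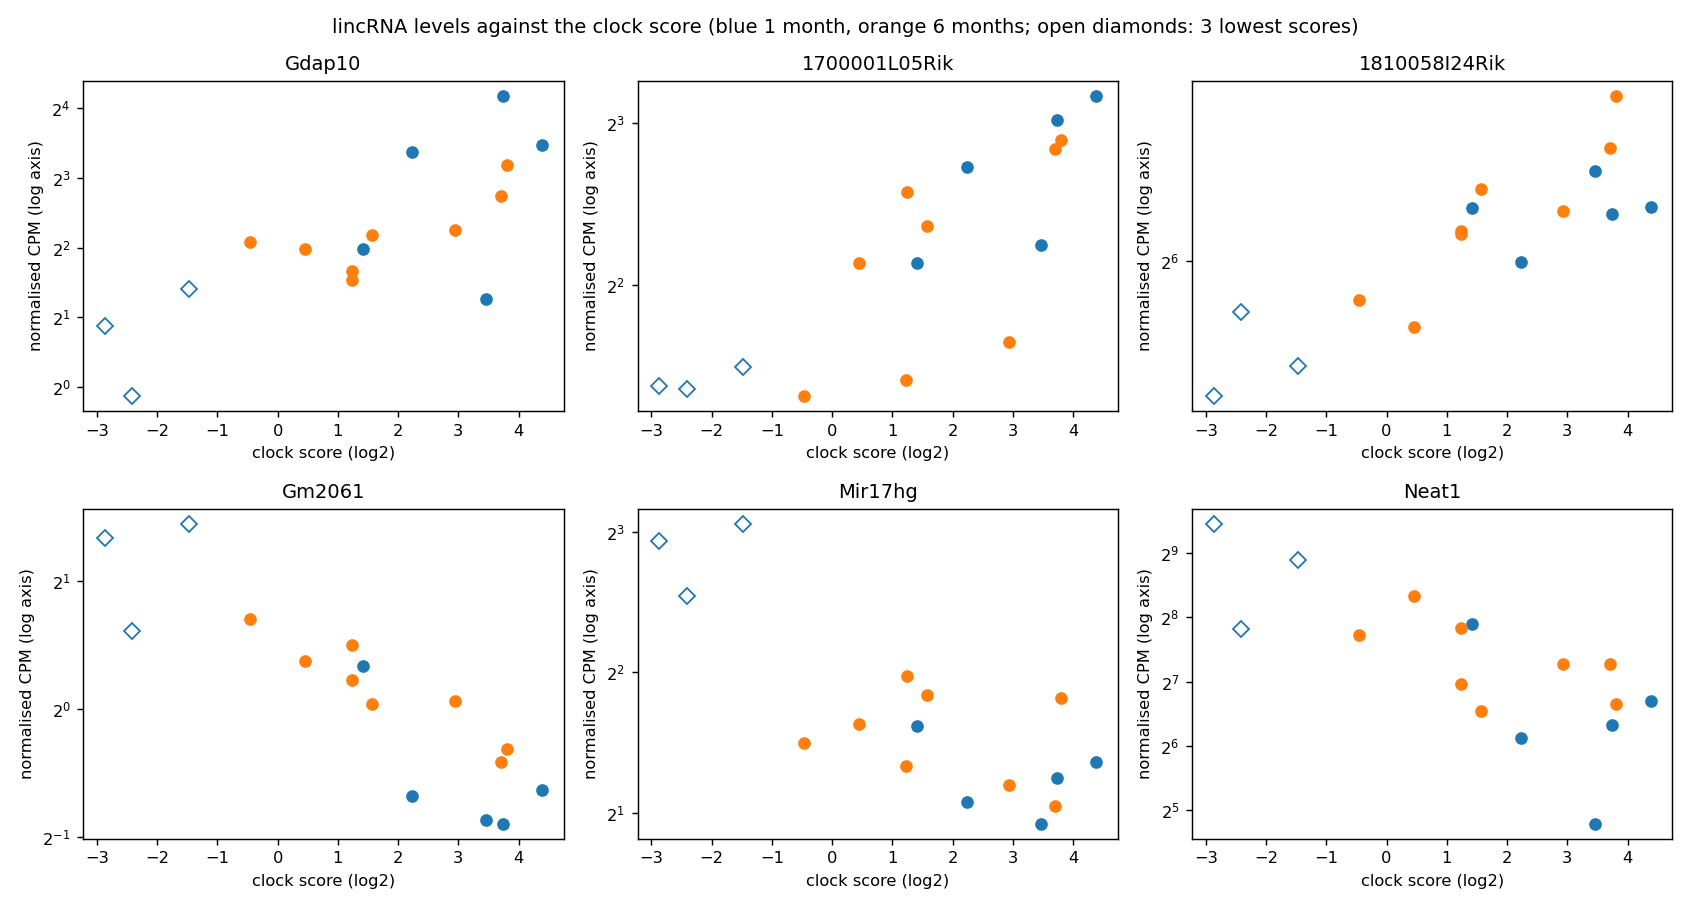
Normalised CPM on a log axis (y axis) of 6 lincRNAs against the clock score in log2 units (x axis); each point is 1 of the 16 libraries, blue at 1 month and orange at 6 months, and open diamonds are the 3 of lowest score. Gdap10, 1700001L05Rik and 1810058I24Rik rise with the score with slopes of 0.41, 0.25 and 0.15, and Gm2061, Mir17hg and Neat1 fall with slopes of -0.28, -0.23 and -0.35.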

How the data were processed

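In 16 libraries of mouse liver RNA, 6 groups were formed from age, day and replicate as the labels give them, with 2 controls per age and 3 libraries per age and day after DEN. Each library is a pool of 3 mice, so SD and p-values measure the spread between pools. TruSeq libraries were sequenced on a NextSeq, and the authors mapped reads to GRCm38 (Ensembl release 84) using TopHat2 2.0.13. Cutadapt, Cuffnorm, Cufflinks 2.2.1 and DESeq2 1.10.1 are further tools of the submitters' processing notes. Raw counts for each gene were deposited by the authors, and no source used here names the counting program or says whether it used strand. The 16 columns of normalized counts and the columns of the authors' fold changes and adjusted p-values were not used, and 10 genes without counts were left out of 47729.

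The filter filterByExpr with 6 groups left 15684 genes, all 265 lincRNAs among them. After TMM scaling, the quasi-likelihood test of edgeR 4.0.16 (with limma 3.58.1 in R 4.3.3) was run in 1 model of all groups, with Benjamini-Hochberg adjustment over all genes and the study's threshold of 0.1. The biological coefficient of variation common to all genes was 0.218 (median prior degrees of freedom 4.06). For the clock score the same model had the score added. Levels are CPM over TMM-scaled totals, and fitted fold changes have a prior count of 0.125. Total counts had a median of 26125036.5, and intervals on ratios of counts are exact and cover counting error only. Alternatives were DESeq2 1.42.0, its size factors, no filter on low counts, the replicate number as a block, each library left out, the 3 libraries of lowest clock score left out, the clock score as a covariate and only the groups compared. The scripts were tested on simulated data.

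Coordinates, exons and neighbours come from GENCODE M21 (GRCm38), and promoters and miRNAs from RefSeq on GRCm38.p6. Genes named are, per comparison, up to 10 lincRNAs with the smallest adjusted p under 0.1 or else the 1 with the smallest p, the 10 most counted, members of the lists of known lincRNAs, and the nearest protein-coding gene of a called lincRNA. The lincRNAs, the lists and the tests were chosen with earlier results of these data known. Slopes of Neat1 and Epb41l4aos, the run near Irs2 and further single values of other lists are outside this rule and were chosen after their values were seen. Python 3.11.15 with pandas 2.3.3, numpy 2.4.6 and matplotlib 3.10.9 was used for tables and plots. A transcript sequence of 1 lincRNA is not reported here.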

Additional observations from a re-analysis of the deposited data

Results flagged for a closer look

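For 3 of the lincRNAs named, the libraries of 1 day after DEN all lay on one side of the controls at 1 age and all on the other side at the other age. This was so at both days for Gm20649, at day 2 alone for Gm20186 and at day 6 alone for 1700020I14Rik. The difference between the ages was tested with edgeR's quasi-likelihood test and did not pass. Gm20649 was below its controls at 1 month and above them at 6 months at both days, with an age difference of 2.44 at day 2 (adjusted p = 0.943) and 1.78 at day 6 (adjusted p = 1). Gm20186, which shares exonic bases with Gm26809 on the other strand, was at 127 and 134 CPM in 1-month controls and at 110.0, 60.7 and 98.6 CPM at day 2. At 6 months it was at 93.9 and 97.5 CPM in controls and at 110.5, 98.1 and 138 CPM at day 2, an age difference of 0.81 (adjusted p = 0.943). 1700020I14Rik differed by 0.28 at day 6 (adjusted p = 1), from 113 and 115 CPM in controls to 106, 104 and 84.4 CPM at 1 month and from 97.2 and 98.3 CPM to 103, 102 and 102 CPM at 6 months. Over all 265 lincRNAs this pattern was seen in 6 at day 2 (2.26%, against 1.45% of all genes tested) and in 4 at day 6 (1.51%, against 1.15%). Groups of 2 and 3 libraries were too small for an outlier test.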

How the results depend on the processing

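Of the recounts of lincRNAs called, 218 stayed within 1.5 times the count and 53 did not. Repeats for single lincRNAs kept their side of the threshold in 721 cases, lost the call in 53, gained it in 7 and reversed in 0. DESeq2 called 3 at day 2 at 1 month (edgeR 0), 3 at day 2 and 3 at day 6 at 6 months (edgeR 1 each), 1 between the days at 1 month (0), 13 between control ages (5 higher and 8 lower, edgeR 5) and 1 for the age difference at day 2 (0). Without a filter on low counts the counts were 5 at day 2 at 1 month, 3 and 3 at 6 months, 2 between the days at 1 month, 15 between control ages, and 1 and 1 for the age differences. Without the 3 libraries of low clock score they were 2 and 2 at 6 months, 2 between control ages and 3 for the slope; with the score as a covariate, 2 and 2 at 6 months and 13 between control ages. With only the groups compared, 3 passed at day 2 at 6 months and 2 between control ages. Shares of all genes called under the alternatives are not given beside these counts, which therefore cannot be read as particular to lincRNAs. The same holds for the counts of DESeq2 above and of left-out libraries below.

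Leaving out 1 library gave 0 to 1 at day 2 and 0 to 0 at day 6 at 1 month, 0 to 2 at day 2 and at day 6 at 6 months, 1 to 2 in the DEN average, 1 to 7 between control ages, 34 to 67 in the mean age comparison, 37 to 83 for the slope, and 0 to 0 between the days and for the age differences. The 0 counts at 6 months came at day 2 without control replicate 2 and at day 6 without any 1 of the 8 6-month libraries or without 1-month day 6 replicate 3. Between control ages, 1 passed without replicate 2 of the 1-month controls or without either 6-month control; the slope fell to 37 without 1-month day 6 replicate 2. The replicate number as a block gave 8 between control ages and 35 for the slope, 30 of which were among the 66; the pairing rests on the number alone, since of 36 same-numbered pairs 16 had deviations correlated over 0.1 (-0.302 to 0.588). The cause of these differences was not tested, apart from the fewer or other genes and libraries that each setting holds. Levels near 1 CPM are some 19 to 34 reads and limit what could be detected.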
